A study of Mus musculus with 8 samples.

Results

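Epithelial genes were followed in inguinal white adipose tissue (ING WAT), the subcutaneous fat depot of the groin, in which the mammary gland of the mouse grows and over which the skin lies. The 10 genes were taken by symbol from the deposited expression table: the keratins *Krt5*, *Krt14*, *Krt17*, *Krt7*, *Krt8*, *Krt18* and *Krt19*, the adhesion genes *Epcam* and *Cdh1*, and the transcription factor gene *Elf5*. All 10 were found, among 37199 genes to which the transcripts of the table could be assigned. The samples were ING WAT of 8 C57BL/6j mice, 4 killed at postnatal day 21 (PN21; m1, m49, m138 and m145) and 4 at postnatal day 98 (PN98; m35, m106, m114 and m125), and poly(A)+ RNA was sequenced. The labels give no treatment or altered gene for either age, and neither the sex of the sequenced mice nor the diet of the PN98 mice. Y-linked RNA was present in all 8 mice, as in males. Values are FPKM, fragments scaled to the length of the transcript and to the mapped fragments of the library, summed over the transcripts of a gene. No read counts were at hand, which leaves the depth of the libraries unknown and the values without a counting error.

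Keratins are the intermediate filament proteins of epithelia and are built as pairs of a type I and a type II chain. *Krt5* (type II) and *Krt14* (type I) make up the filaments of basal cells, the outer layer of mammary ducts and the lowest layer of the epidermis, and *Krt17* is a type I keratin of hair follicles, basal cells and injured skin. *Krt8* and *Krt7* (type II) pair with *Krt18* and *Krt19* (type I) in simple epithelia such as the luminal cells that line mammary ducts. *Epcam* and *Cdh1* (E-cadherin) join epithelial cells to each other, and *Elf5* directs the fate of luminal progenitors and of milk-producing alveolar cells.

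The luminal pair stands side by side on the genome. In GENCODE vM21 (GRCm38, the build named mm10 in the labels) *Krt8* lies at chr15:101996698-102004482 on the minus strand and *Krt18* at chr15:102028180-102032027 on the plus strand, with 23697 bases between them. *Krt7* (chr15:101411043-101430313, plus strand) and *Krt5* (chr15:101707070-101712898, minus strand) belong to the same cluster. *Krt19* (chr11:100140810-100148665), *Krt14* (chr11:100203162-100207548) and *Krt17* (chr11:100256217-100261029) follow one another on the minus strand of the type I cluster. The remaining genes are *Epcam* (chr17:87635979-87651129, plus strand), *Cdh1* (chr8:106603351-106670246, plus strand) and *Elf5* (chr2:103411688-103450989, plus strand).

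The start site regions of 4 genes are shown, those of the luminal pair *Krt8* and *Krt18*, which varied together between mice, of *Krt5*, which did not vary with them, and of *Epcam*, the gene that passed the test. They are windows from 250 bases before to 50 bases after the RefSeq start (GRCm38.p6), 5′ to 3′ on the strand of the gene. They lie at chr15:102004293-102004592 (*Krt8*), chr15:102027966-102028265 (*Krt18*), chr15:101712856-101713155 (*Krt5*) and chr17:87635729-87636028 (*Epcam*). Capitals mark CACCTG or its reverse complement CAGGTG, the E-box that repressors of the Snai and Zeb families are known to bind.
Krt8: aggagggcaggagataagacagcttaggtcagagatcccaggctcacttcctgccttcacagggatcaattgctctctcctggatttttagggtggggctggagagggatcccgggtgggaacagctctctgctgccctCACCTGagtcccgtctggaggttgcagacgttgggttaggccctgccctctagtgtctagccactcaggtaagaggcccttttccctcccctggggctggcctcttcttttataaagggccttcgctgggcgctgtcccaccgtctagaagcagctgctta
Krt18: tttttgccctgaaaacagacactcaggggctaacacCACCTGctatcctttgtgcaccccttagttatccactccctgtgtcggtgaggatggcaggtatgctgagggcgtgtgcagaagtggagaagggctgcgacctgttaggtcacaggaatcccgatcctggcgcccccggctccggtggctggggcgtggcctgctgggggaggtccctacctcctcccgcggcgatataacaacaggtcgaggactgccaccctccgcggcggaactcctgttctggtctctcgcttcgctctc
Krt5: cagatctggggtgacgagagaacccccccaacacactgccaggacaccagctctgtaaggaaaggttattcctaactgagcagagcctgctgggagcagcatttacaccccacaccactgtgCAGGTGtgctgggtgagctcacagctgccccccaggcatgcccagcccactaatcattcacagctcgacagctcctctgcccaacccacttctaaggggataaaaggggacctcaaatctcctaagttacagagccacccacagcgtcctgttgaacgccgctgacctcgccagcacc
Epcam: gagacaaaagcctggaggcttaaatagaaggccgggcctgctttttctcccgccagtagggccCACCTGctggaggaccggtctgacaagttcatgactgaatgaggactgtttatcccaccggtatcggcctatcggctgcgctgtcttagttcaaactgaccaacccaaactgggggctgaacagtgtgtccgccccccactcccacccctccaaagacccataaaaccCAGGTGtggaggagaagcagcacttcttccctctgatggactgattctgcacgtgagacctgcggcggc

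Such a window was at hand for 7 of the 10 genes, and 7 of their 8 windows (*Elf5* has 2) held CACCTG on one of the strands, against 20.2% of all 32851 windows of the same length. The motif began at position −111 in *Krt8*, −214 in *Krt18*, −128 in *Krt5* and −187 and −19 in *Epcam*, counted with 1 as the first transcribed base. It was also found in *Krt7* and in both windows of *Elf5*. The window of *Krt14* had none. Its RefSeq start lies inside the gene as GENCODE draws it. The same holds for *Krt7*, *Krt8*, *Krt18* and both windows of *Elf5*, which held the motif. For these genes the windows are not those of the outermost GENCODE start. In *Krt8*, *Krt7* and both windows of *Elf5* the motif itself lies inside the GENCODE gene. Among 6 other motifs searched on both strands, GGGCGG was found in *Krt7* and *Epcam* (35.7% of all windows) and TATAAA in *Krt8* (13.6%), whereas CCAAT (37.4%), TGACTCA (5.20%), CCGGAAG (8.86%) and AACCGGTT (0.146%) were in no window of these genes. These matches describe letters of the genome and were measured in no library.

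All 10 genes had their highest value in a PN21 mouse, as had 59.8% of the 26921 genes above 0 in at least 1 mouse. The ages did not overlap for 6 of them, *Krt8*, *Krt18*, *Krt19*, *Krt14*, *Epcam* and *Cdh1*. The same, with PN21 above PN98, was found in 8.27% of those genes. No member reached 1 FPKM in any PN98 mouse, while 5 did so in m1, 6 in m49, 2 in m138 and 7 in m145. In a whole piece of fat, fewer epithelial cells and less RNA per cell cannot be told apart. A value of 0 in this table can be a failed estimate, since *mt-Co1*, which every cell with mitochondria uses, was listed at 0 in m106 and m125. Members with a 0 are therefore given mouse by mouse.

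Among the luminal keratins, *Krt8* stood at 1.28 FPKM in m1, 0.586 in m49, 0.228 in m138 and 1.48 in m145, and at 0.0160 in m35, 0.0386 in m106, 0.0724 in m114 and 0.0370 in m125. Its partner *Krt18* stood at 2.91, 1.09, 0.292 and 3.22 FPKM in the same PN21 mice and at 0.129, 0.0886, 0.291 and 0.0495 in the PN98 mice. *Krt19*, the smallest keratin, stood at 8.09, 3.03, 1.27 and 9.73 FPKM at PN21 and at 0.668, 0.890, 0.589 and 0.685 at PN98. In all of them m145 and m1 were the highest mice and m138 the lowest of PN21, so close to the PN98 mice for *Krt18* that 0.292 FPKM in m138 stood beside 0.291 in m114. The means were 0.894 ± 0.587 and 0.0410 ± 0.0233 FPKM for *Krt8* (SD, n = 4 mice per age), a ratio of 21.8, 1.88 ± 1.41 and 0.139 ± 0.106 for *Krt18*, a ratio of 13.5, and 5.53 ± 4.03 and 0.708 ± 0.128 for *Krt19*, a ratio of 7.81. The PN21 mice spread far more than the PN98 mice. *Krt7* differed from these, with 1.06, 0.586, 0.497 and 0.389 FPKM at PN21 and 0.549, 0.243, 0.0322 and 0.447 at PN98, so that the ages overlapped and m145 was the lowest PN21 mouse. Nearly all of the *Krt7* value in m145 came from a transcript that GENCODE does not call protein coding.

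The basal keratins were high in other mice. *Krt5* stood at 0.192 FPKM in m1, 13.2 in m49, 0.0196 in m138 and 3.98 in m145, at 0.0267 in m106 and 0.0596 in m125, and was listed at 0 in m35 and m114. *Krt14* stood at 0.689, 10.8, 0.143 and 2.30 FPKM at PN21 and was listed at 0 in all 4 PN98 mice. *Krt17* stood at 0.167, 2.16, 0 and 1.35 FPKM at PN21 and at 0.0190, 0.0131, 0 and 0 at PN98. All 3 genes were highest in m49 and next in m145, and both remaining PN21 mice were below 1 FPKM in each. The ages overlapped for *Krt5* and *Krt17* through m138.

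**Figure D1:**
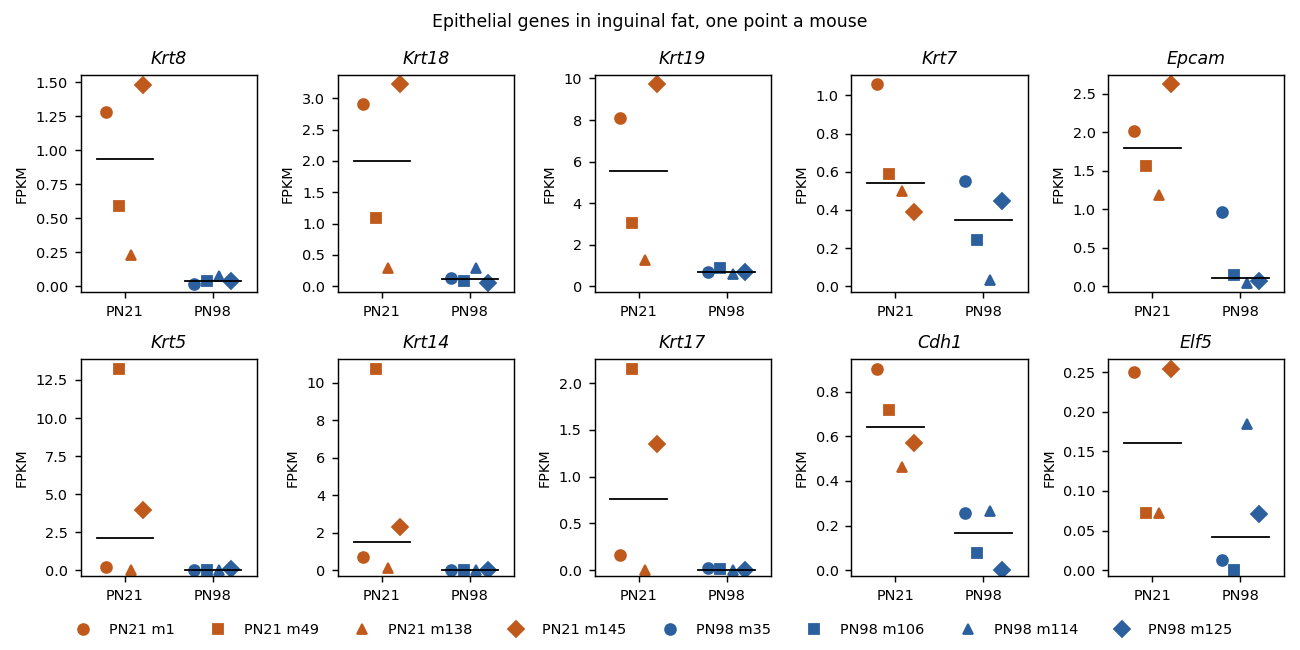
FPKM of the 10 genes (vertical axes, linear, a scale for each gene) in each of the 4 PN21 mice (orange) and 4 PN98 mice (blue); a horizontal line marks the median of an age. The luminal keratins Krt8, Krt18 and Krt19 are highest in m145 and m1, the basal keratins Krt5, Krt14 and Krt17 in m49 (13.2, 10.8 and 2.16 FPKM).

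Of the adhesion genes, *Epcam* stood at 2.02 FPKM in m1, 1.57 in m49, 1.19 in m138 and 2.62 in m145, and at 0.964 in m35, 0.144 in m106, 0.0421 in m114 and 0.0645 in m125. The ages did not overlap, but m35 lay much closer to the PN21 mice than to the other PN98 mice. *Cdh1* stood at 0.903, 0.716, 0.462 and 0.570 FPKM at PN21 and at 0.255, 0.0752, 0.263 and 0 at PN98. It was the most even member within PN21 and did not overlap between the ages either. *Elf5* stood at 0.250, 0.0721, 0.0719 and 0.254 FPKM at PN21 and at 0.0127, 0, 0.184 and 0.0706 at PN98. Its highest mice at PN21 were again m1 and m145, all its values were below 0.3 FPKM, and the ages overlapped.

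In the comparison between the ages, only *Epcam* fell past the test, by 1.16 on the log2(FPKM + 1) scale (SE 0.26, limma, adjusted p = 0.0405, lower in 4 of 4 PN98 mice). The 5 members with a mean of at least 1 FPKM over the 8 mice were tested; each reached that mean through PN21 mice alone, so their shared direction is no finding. *Krt19* had a log2 fold change of −1.68 (SE 0.46, limma, adjusted p = 0.0743), *Krt18* of −1.19 (SE 0.37, adjusted p = 0.0958), *Krt14* of −1.56 (SE 0.64, adjusted p = 0.163) and *Krt5* of −1.58 (SE 0.78, adjusted p = 0.218). The log2 fold change is PN98 minus PN21, and it understates the change of genes near or below 1 FPKM. For *Krt14*, listed at 0 throughout PN98, it depends on the 1 FPKM that was added and gives no fold. Of all 15791 genes tested, 5.52% were called, 3.08% lower at PN98 and 2.43% higher. Over all genes tested the median of the log2 fold changes was −0.21. It moved to −0.02 with median of ratios scaling and to 0.01 when the mice were scaled to nuclear genes, and *Epcam* then fell by 1.09 (adjusted p = 0.0338) and 1.07 (adjusted p = 0.0439).

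Single mice moved these values. Without m49 the log2 fold change of *Krt5* was −0.84 (limma, adjusted p = 0.360) and that of *Krt14* −0.89 (adjusted p = 0.201). The call of *Epcam* was a narrow one. It was kept without m35, where *Epcam* fell by 1.37 (limma, adjusted p = 0.00832), and was lost without any other mouse, with adjusted p between 0.0699 and 0.121. It was also lost with a pseudocount of 0.1 (adjusted p = 0.0510), without the filter on low values (adjusted p = 0.0571) and with a trended and robust variance (adjusted p = 0.0564). *Krt19* and *Krt18* were called lower at PN98 when m138 was left out (limma, adjusted p = 0.0370 and 0.0450) and when mice were weighted by arrayWeights (adjusted p = 0.0211 and 0.0236).

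The other 5 members were below the filter. Fitted without it over 26921 genes, where 2.07% of genes were called lower at PN98, none of the 10 members was called, while 5 had an unadjusted p under 0.05 and were lower at PN98, as had 14.8% of the genes in that fit. All 10 had negative log2 fold changes there, with a median of −0.98 beside −0.06 over all genes in that fit. *Cdh1* came nearest (log2 fold change −0.53, SE 0.11, limma, adjusted p = 0.0540), then *Epcam* and *Krt8* (−0.81, SE 0.22, adjusted p = 0.101). *Krt17* had −0.77 (SE 0.37, adjusted p = 0.285), *Krt7* −0.31 (SE 0.17, adjusted p = 0.338) and *Elf5* −0.12 (SE 0.08, adjusted p = 0.444).

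**Figure D2:**
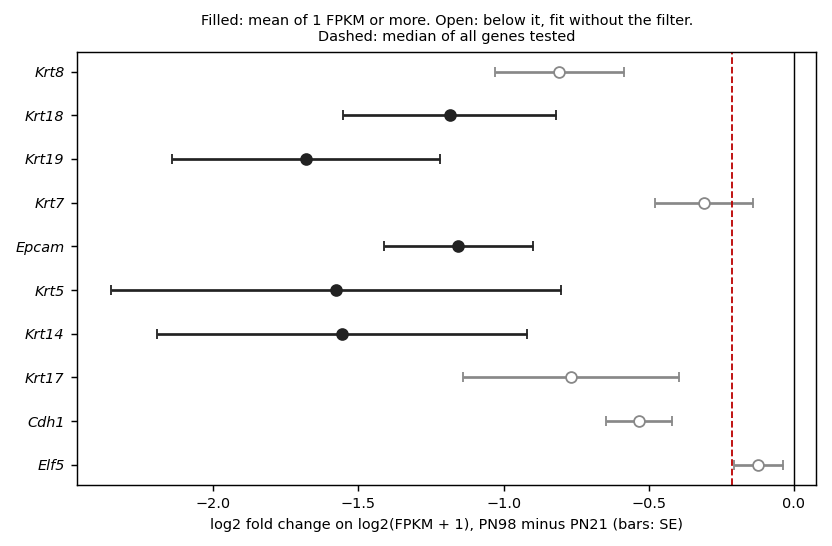
Log2 fold change of each gene on the log2(FPKM + 1) scale, PN98 minus PN21, from limma (points; bars are SE; n = 4 mice per age). Filled points are members with a mean of at least 1 FPKM, open points come from the fit without that filter, and the dashed line at −0.21 is the median of the 15791 genes tested; all 10 points lie below 0, and that of Krt14 depends on the 1 FPKM added.

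Part of these sums came from transcripts that GENCODE does not call protein coding. For *Krt19* a processed transcript, ENSMUST00000126460, held 61.3% of the mean, with 5.55, 2.08, 0.630 and 6.25 FPKM at PN21. The protein-coding transcript of *Krt19*, ENSMUST00000007317, stood at 2.54, 0.195, 0.640 and 3.43 FPKM at PN21 and at 0.541, 0.595, 0.439 and 0.0645 at PN98, so that m49 lay below 3 PN98 mice and the ages overlapped. With protein-coding transcripts alone, *Krt19* had a log2 fold change of −0.76 (SE 0.40, limma, adjusted p = 0.230). For *Krt14* the protein-coding ENSMUST00000007272 and the processed transcript ENSMUST00000137265 held 52.1% and 47.9% of the mean, and both were highest in m49. *Krt5*, *Krt8*, *Krt17*, *Krt18* and *Epcam* each had 1 transcript, whereas the sums of *Krt7* and *Elf5* were spread over 6 and 7. The protein-coding transcripts of *Krt7* summed to 0.891, 0.207, 1.93e-05 and 5.76e-05 FPKM at PN21 and to 0.0937, 0.0206, 0.0144 and 0.358 at PN98. Those of *Elf5* summed to 0.233, 9.46e-07, 0 and 0.219 FPKM at PN21 and to 0.0127, 0, 0.0242 and 0 at PN98.

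Luminal and basal keratins were compared within each mouse. Their ratio does not depend on how mice are scaled, unless a value is added to both genes. Log2 of *Krt8* over *Krt5* was 2.74 in m1, −4.50 in m49, 3.54 in m138 and −1.42 in m145, and log2 of *Krt18* over *Krt14* was 2.08, −3.31, 1.04 and 0.48. The PN21 mice thus lay on both sides of 0 with both pairs, and m145 changed side with the pair. At PN98 the ratio of *Krt8* to *Krt5* could be formed in 2 mice only, with 0.53 in m106 and −0.69 in m125, and that of *Krt18* to *Krt14* in none. The difference in *Krt8* over *Krt5* was −0.17 (two-sided exact permutation test over 15 splits of 6 mice, p = 1). With 4 mice against the 2 in which *Krt5* was not listed at 0, the smallest possible p is 0.0667, so that this test could not show a difference. With 1 FPKM added to both genes, so that all 8 mice could be used, the difference was 0.77 for *Krt8* over *Krt5* (two-sided exact permutation test, p = 0.543) and 0.37 for *Krt18* over *Krt14* (p = 0.914), where 0.0286 is the smallest p that 70 splits allow. The sign of the first of these differences therefore turned with the added value.

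Over all 12 pairs of a luminal and a basal keratin, the luminal one was higher in 12 pairs in m1 and in m138 (where *Krt17* was listed at 0), in 6 in m145 and in 1 in m49. In m138 *Krt7* was above *Krt5* and *Krt14* through transcripts that GENCODE does not call protein coding. The pairs are not counted at PN98, where every mouse had a basal keratin listed at 0. The luminal keratins summed to 0.985 to 1.36 FPKM there. At PN21 the luminal keratins summed to 13.3 FPKM in m1, 5.29 in m49, 2.29 in m138 and 14.8 in m145. The basal ones summed to 1.05, 26.2, 0.162 and 7.63 FPKM in the same mice. The mouse m138 was thus low in both groups, m1 was high in luminal keratins, m49 in basal ones, and m145 in both.

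**Figure D3:**
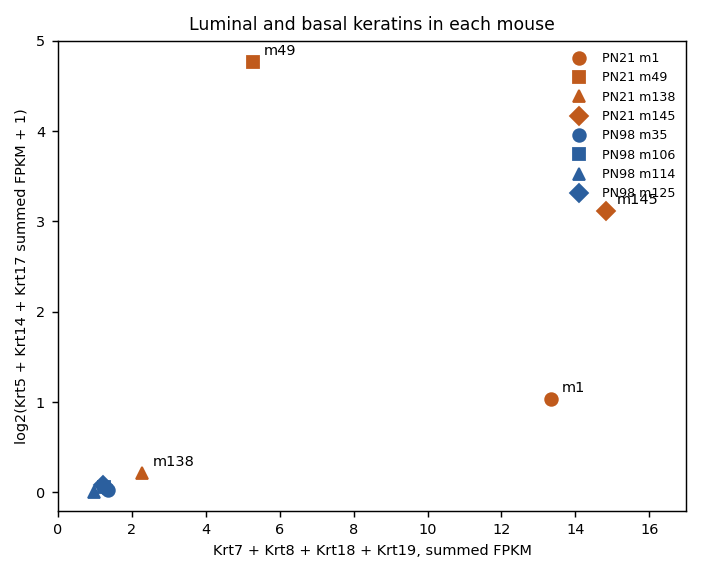
Summed FPKM of the luminal keratins Krt7, Krt8, Krt18 and Krt19 (horizontal, linear) against log2 of the summed FPKM of the basal keratins Krt5, Krt14 and Krt17 plus 1 (vertical), a point a mouse. The 4 PN98 mice lie together in the lower left corner with m138 close by, m1 lies low on the right (13.3 FPKM luminal), and m49 lies highest (26.2 FPKM basal).

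Within an age the members fell into sets that varied together. After the mean of each age was subtracted from log2(FPKM + 1), Pearson's r over the 8 mice was 0.991 between *Krt8* and *Krt18* and 0.990 between *Krt8* and *Krt19*, and it was 0.977 between *Krt5* and *Krt14* and 0.989 between *Krt5* and *Krt17*. Between *Krt8* and *Krt14* it was 0.092. *Elf5* had an r of 0.753 with *Krt8* and −0.184 with *Krt14*. These r values are a description of 8 libraries, and they rest mainly on the 4 PN21 mice, because the keratins hardly varied at PN98.

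The 5 tested genes most like *Krt8* by this measure were *1700056E22Rik* (r = 0.992), *Wfdc18* (0.988), *Ubl4* (0.958), *Dph3b-ps* (0.956) and *n-R5s96* (0.945). *Wfdc18*, a small secreted protein made by the mammary epithelium, stood at 3.72, 1.05, 0.0918 and 6.61 FPKM at PN21 and at 0.0933 to 0.242 at PN98 (adjusted p between the ages 0.157, limma). Its PN21 mice stood in the order of *Krt8*, which its choice by likeness to *Krt8* fixes. The others of these 5 are in no list of epithelial genes used here. Among them, *n-R5s96* was listed at 0 in every mouse but m1 (9.34 FPKM) and m145 (14.3 FPKM), and a 0 can be a failed estimate. The 5 most like *Krt14* were *Krt77* (r = 0.978), *Lce1a2* (0.977), *Krt10* (0.971), *Lor* (0.971) and *Fam25c* (0.969). *Krt10* is the keratin of the upper, differentiated layers of the epidermis, and *Lor* (loricrin) and the Lce proteins build the cornified envelope of skin. The 5 most like *Elf5* were *Zfp219* (0.976), *Yif1b* (0.971), *Gm7075* (0.962), *Gm20650* (0.962) and *Nelfe* (0.960), and none of these 5 is in a list of epithelial genes used here.

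*Krt10* stood at 2.02, 33.4, 1.50 and 11.8 FPKM in m1, m49, m138 and m145 and at 1.33 to 1.88 at PN98. *Lor* stood at 0.200, 17.4, 0.0742 and 5.14 FPKM at PN21 and at 0 to 0.132 at PN98. *Krt77*, a keratin of the epidermal list used here, stood at 0.00823, 16.2, 0.0107 and 3.68 FPKM at PN21, and *Krt15*, a basal keratin of the hair follicle bulge, at 0, 16.3, 0 and 5.41 FPKM. Both were at most 0.0791 FPKM in any PN98 mouse. None of these passed the test between the ages (limma, adjusted p 0.215 to 0.251), and m1 and m138 lay near the PN98 mice in all of them. *Krt10*, *Lor* and *Krt77* were named for their likeness to *Krt14*, which fixes that they were high in the same mice. The part of skin in these samples was not tested.

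Of the 28 genes of the epidermal list 10 were tested and 1 was called lower at PN98, *Lgr6*, a stem cell gene of skin and follicle, with 2.65, 1.83, 2.87 and 2.42 FPKM at PN21 and 0.0196, 0.364, 0 and 1.12 at PN98 (log2 fold change −1.39, SE 0.26, limma, adjusted p = 0.0240). Its PN21 values did not follow *Krt14*. *Sbsn*, a secreted protein of the upper epidermis, stood at 8.89 to 28.3 FPKM at PN21 and at 27.2 to 40.7 at PN98, and *Krtdap* at 0.923 to 26.7 and 2.70 to 5.18. Among all genes tested, 3.08% were called lower at PN98. The summed level of the list was 21.7 to 166 FPKM at PN21 and 41.9 to 61.4 at PN98. The median log2 fold change of its 10 tested genes was −1.42. Some of them, such as *Lor*, reached the filter through PN21 mice alone, so this median is no finding. Without the filter the median was −0.15 over 26 genes of the list, beside −0.06 over all genes in that fit.

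Some genes of mammary luminal cells fell past the test. Of 25 listed genes 12 were tested, and 4 were called lower at PN98 and none higher, where 3.08% and 2.43% of all genes tested were. The median log2 fold change of the tested genes was −1.17, beside −0.21 over all genes. Some of them, such as *Ltf*, reached the filter through PN21 mice alone, so this median is no finding. Without the filter the median of the 25 listed genes was −0.17, beside −0.06 over all genes in that fit. *Ltf* (lactoferrin) stood at 2.30, 0.918, 3.23 and 2.86 FPKM at PN21 and at 0.0505, 0.0696, 0 and 0 at PN98 (limma, adjusted p = 0.0122). *Lcn2*, a siderophore-binding protein of epithelia and neutrophils, stood at 6.05, 4.21, 5.03 and 6.38 FPKM and at 1.95, 1.07, 2.34 and 0.916 (log2 fold change −1.35, SE 0.23, limma, adjusted p = 0.0172). *Cited1*, a coactivator of the estrogen receptor, stood at 8.38, 4.69, 6.77 and 8.18 FPKM and at 1.35, 3.03, 2.13 and 0.586 (−1.59, SE 0.31, limma, adjusted p = 0.0255). *Prlr*, the prolactin receptor, stood at 3.04, 3.87, 1.83 and 2.02 FPKM and at 0.408, 0.611, 0.796 and 1.14 (−1.07, SE 0.22, limma, adjusted p = 0.0342). In m138, where *Krt8* was the lowest of PN21, *Ltf* was the highest. *Lcn2* and *Cited1* were lowest of PN21 in m49, and *Prlr* was highest there. None of these 4 called genes thus followed the order of *Krt8* over the PN21 mice. Other tested genes of the list went the other way, though none was called. The log2 fold change was 0.44 for *Aldh1a3*, 0.38 for *Trps1*, 0.24 for *Muc1* and 0.15 for *Kit*. The remaining tested genes had negative values.

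Of 9 listed milk protein genes only *Mfge8*, which many cell types make, was tested (15.8 to 30.4 FPKM at PN21 and 13.5 to 63.7 at PN98, limma, adjusted p = 0.576). *Csn1s1* and *Csn1s2b* were listed at 0 in all 8 mice, which can be a failed estimate. *Csn3* (kappa-casein) stood at 1.96 FPKM in m1 and 2.05 in m145, at 0.269 in m49 and 0.0740 in m138, and at 0 to 0.0897 at PN98. It was thus highest in the mice with the highest *Krt8* (r = 0.969, as above).

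Of the transcription factors and other regulators of epithelia, 3 of 20 were tested and none was called. *Grhl1* stood at 0.734 to 1.18 FPKM at PN21 and at 1.73 to 3.59 at PN98 (log2 fold change 0.77, limma, adjusted p = 0.0572), opposite to the members. *Myo5b*, a motor of apical membrane traffic, stood at 3.37 to 5.59 and 1.37 to 5.84 FPKM. *Tfap2c*, which was singled out after its values were seen, stood at 0.520 FPKM in m1, 0.0720 in m49, 0.0231 in m138 and 0.797 in m145 and at no more than 0.00701 at PN98, again the order of *Krt8*.

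Of 20 genes of basal and myoepithelial cells 12 were tested and none was called. The median log2 fold change was −0.52, and −0.43 without the filter. The most abundant, *Lama5* and *Acta2*, are also made by vessels and smooth muscle, and stood at 111 to 199 and 32.1 to 74.2 FPKM at PN21 and at 8.99 to 344 and 8.11 to 190 FPKM at PN98. Of 20 genes of epithelial junctions 8 were tested and none was called, with a median of −0.96, and −0.36 without the filter. *Jup* stood at 28.5 to 61.7 FPKM at PN21 and 31.7 to 79.1 at PN98, and *F11r* at 36.8 to 40.6 and 24.5 to 40.8. Of 8 sebaceous gland genes 4 were tested and *Scd3* rose, from 12.1 to 38.3 FPKM at PN21 to 122 to 283 at PN98 (log2 fold change 3.06, SE 0.41, limma, adjusted p = 0.00802). *Elovl3* stood at 0.574 to 6.91 and 0.581 to 55.9 FPKM, and both are also genes of fat cells. Among all genes tested, 2.43% were called higher at PN98.

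In all, 49 of the 129 genes of these 7 epithelial lists that are no members were tested, and 5 were called lower and 1 higher at PN98, where 3.08% and 2.43% of all genes tested were. The split depended on the scaling, with 4 lower and 3 higher under median of ratios scaling and 3 lower and 4 higher under scaling to nuclear genes. Without m35 the count of genes called lower was 17, and without each of the other mice it lay between 1 (without m1, m138 or m145) and 5.

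Some epithelial genes followed lymphocyte genes and not the keratins, and m35 stood apart in them. The genes in this paragraph apart from *Cd3g* and *Cd79b* were singled out after their values were seen. *Cd3g*, a chain of the T cell receptor complex, stood at 130, 241, 303 and 305 FPKM at PN21, at 245 in m35 and at 40.3, 12.3 and 7.28 in m106, m114 and m125, and *Cd79b*, of the B cell receptor, at 67.6 to 167 at PN21, 179 in m35 and 2.33 to 36.5 in the others. The 10 lymphocyte genes listed summed to 438 to 1088 FPKM at PN21, to 969 in m35 and to 20.2 to 191 in the other PN98 mice. *Pkp3* (plakophilin 3, of desmosomes) stood at 15.0, 20.0, 34.2 and 32.1 FPKM at PN21, at 31.2 in m35 and at 7.20, 1.63 and 4.14 in the others. *Sfn* (stratifin) stood at 6.73, 6.42, 10.9 and 9.94 FPKM, 10.1 in m35 and 3.15, 1.79 and 1.18 in the others. With *Cd3g* the r of deviations was 0.920 for *Pkp3*, 0.972 for *Sfn*, 0.860 for *Dsc3* and 0.886 for *Cldn7*, against −0.171, −0.120, −0.590 and −0.354 with *Krt8*. *Epcam* lay between, with an r of 0.713 with *Cd3g* and 0.521 with *Krt8*, and was the only member above 0.2 with *Cd3g*. The part of lymphocytes or of cells that come with them in the values of *Epcam* was not tested.

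**Figure D4:**
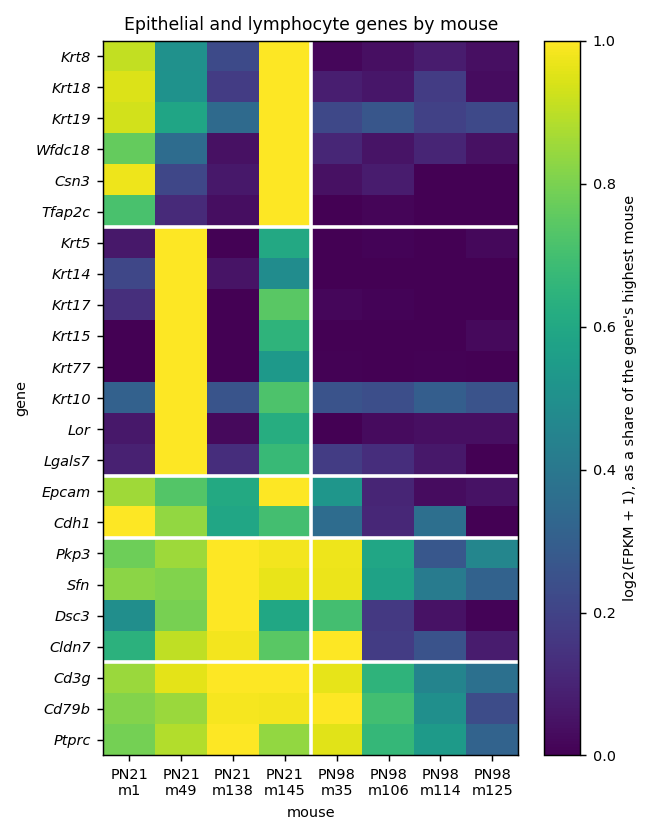
Heat map of log2(FPKM + 1) of 23 genes (rows) in the 8 mice (columns), each as a share of the gene's own highest mouse, from 0 (dark) to 1 (yellow). From the top, white lines part genes like Krt8, genes like Krt14, Epcam and Cdh1, junction and epidermal genes, and lymphocyte genes. The first set is brightest in m145 and m1, the second in m49, and the last 2 sets are bright in the 4 PN21 mice and in m35.

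Among keratins at large, 39 of 51 listed genes were above 0 in at least 1 mouse. Of the 44 that are no members, 7 had a mean of at least 1 FPKM. Besides *Krt10*, *Krt15* and *Krt77* these were *Krt36* (1.49 to 3.89 FPKM at PN21 and 0.883 to 2.32 at PN98), *Krt79* (1.94 to 3.82 and 2.43 to 4.49), *Krt80* (1.31 to 1.67 and 1.43 to 3.86) and *Krt222* (1.24 to 1.78 and 0.937 to 2.56). These 4 overlapped between the ages and were not among the called genes (limma, adjusted p 0.210 to 0.655).

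Hormone receptors of the mammary gland and markers of other tissue were read for the same mice. *Esr1*, the estrogen receptor that duct growth needs, stood at 7.10 to 10.4 FPKM at PN21 and at 4.86 to 6.35 at PN98, without overlap (log2 fold change −0.56, limma, adjusted p = 0.0864). *Pgr* was listed at 0 in 7 mice and at 0.00783 FPKM in m1. *Ghr* stood at 123 to 205 and 244 to 467 FPKM (adjusted p = 0.0869, limma). *Ddx3y*, on the Y chromosome, stood at 18.1 to 22.1 FPKM at PN21 and 19.9 to 25.9 at PN98, and *Eif2s3y* at 45.8 to 84.5 and 38.9 to 70.4. Y-linked RNA was thus present in all 8 mice, as in males. *Uty* stood at 3.28 to 5.68 FPKM and *Kdm5d* at 2.41 to 6.01 over all mice. *Xist*, the RNA of the inactive X chromosome, stood at 0.247 to 0.832 FPKM at PN21 and at 0 to 0.00704 at PN98.

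The tissue carried the marks of fat in every mouse. *Adipoq* stood at 817 to 1279 FPKM at PN21 and 2512 to 3653 at PN98, and *Adipoq*, *Cidec* and *Lipe* were called higher at PN98, 3 of the 8 adipocyte genes tested. Skeletal muscle genes summed to 8.36 to 418 FPKM at PN21 and 410 to 2643 at PN98, with 3 of 9 tested called higher (*Tcap*, *Actn3* and *Atp2a1*). Among all genes tested, 2.43% were called higher, a share that moved with the scaling. None of 8 mesothelial genes reached the filter, *Rspo1* (0.182 to 2.30 FPKM) and *Lrrn4* (0.453 to 0.991) being the most abundant, and *Cd207* of Langerhans cells stood at 0.186 to 0.637 FPKM at PN21 and 0 to 0.754 at PN98. The part of these tissues in the keratin values was not tested. Transcripts above 0 numbered 55532 to 62298 per mouse.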

How the data were processed

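The labels group ING WAT of 8 mice by age, 4 at PN21 and 4 at PN98. The authors mapped paired-end reads of directional poly(A)+ libraries to mm10 with STAR (2.3.0), quantified Ensembl transcripts with Cufflinks (2.1.1) on a Gencode annotation and deposited FPKM values per transcript and mouse. These values are no counts, so no count model was used and depth is unknown. In 40436 of the 91969 transcripts a value had lost its decimal mark. Other deposited columns hold an average, a standard deviation and a score over 10 values a row, 8 of which are the listed mice; they served only to restore the marks. A single reading was found for 40373 transcripts and the other 63 were left out. Of the restored transcripts 5014 also stand with intact decimals in another deposited table, and all 5014 were equal in the 8 mice (relative tolerance 1e-05). Columns with the authors' own fold ratio and p-value of the age comparison were not used.

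FPKM were summed per gene, by the gene that a row names or, where it names several, by GENCODE vM21; 1827 rows stayed unassigned. Genes with a mean of at least 1 FPKM were compared with limma (3.58.1, R 4.3.3) on log2(FPKM + 1), PN98 minus PN21, without covariates, with Benjamini-Hochberg adjustment over all 15791 genes and a threshold of 0.05. Where a symbol had several gene IDs, the one with the highest mean was used. On simulated data with shifted genes the fit was checked beforehand. Keratin ratios were compared with two-sided exact permutation tests over mice. The labels do not state whether the mice of an age shared a litter or cage, and p-values measure the spread between these 8 samples. The members and lists were chosen with earlier results of these data known. Named were all 10 members, from each list the called genes (at most 4 by p) or otherwise the 2 most abundant, the hormone receptors, the Y-linked genes, *Xist*, *Cd207*, other keratins with a mean of at least 1 FPKM, and the 5 tested genes most like *Krt8*, *Krt14* and *Elf5*. Genes named outside this rule are *Csn1s1*, *Csn1s2b*, *Tfap2c*, *Pkp3*, *Sfn*, *Dsc3*, *Cldn7*, *Ly6d*, *Aldh1a3*, *Trps1*, *Muc1* and *Kit*, chosen after their values were seen. A gene that this rule names is not reported here. Alternatives were another pseudocount, no filter, other scalings, mouse weights, another variance model, other transcript sets and each mouse left out.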

Additional observations from a re-analysis of the deposited data

Results flagged for a closer look

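*Epcam* was flagged in PN98 mouse m35, where it stood at 0.964 FPKM while the other PN98 mice lay between 0.0421 and 0.144. The summed level of the mammary luminal genes was flagged in the same mouse, at 158 FPKM, against 23.3 to 45.8 FPKM in the other PN98 mice. Most of that sum was *Ly6d*, with 131 FPKM in m35 and 2.25 to 24.5 in the others, whose deviations followed *Cd3g* with an r of 0.975. The summed level of skeletal muscle genes was flagged in PN21 mouse m138, at 418 FPKM, against 8.36 to 69.6 FPKM in the other PN21 mice. In each case the gap from that mouse to the nearest of its age exceeded Dixon's limit for a group of this size. Of 32 groups of 4 mice examined this way 3 were flagged, and chance flags about 1 in 20.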

How the results depend on the processing

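No member was called higher at PN98 under any alternative, and the direction of the 5 tested members, which passed the filter through PN21 mice, is not counted as stable. The count of members called lower, 1 of 5, became 0 with a pseudocount of 0.1, without the filter (10 tested), with a trended and robust variance and with single transcripts of lowest p (1 tested), and 3 with arrayWeights; it ranged from 0 to 2 when 1 mouse was left out. Epithelial list genes called lower, 5, became 3 with scaling to nuclear genes and 19 with arrayWeights and ranged from 1 to 17 with 1 mouse left out. Those called higher, 1, became 2 with a pseudocount of 0.1 and with all rows listing a symbol, 3 with median of ratios scaling, arrayWeights and (added after the data were seen) protein-coding transcripts only, and 4 with scaling to nuclear genes, and ranged from 1 to 2 with 1 mouse left out. All genes called, 871, became 4648 with arrayWeights, 281 with single transcripts and 0 with intact decimals only (380 tested with limma, no member among them, 49 at an unadjusted p under 0.05), and ranged from 206 to 3610 with 1 mouse left out, the highest without m35. The split of calls turned from 384 higher and 487 lower to 764 and 467 with median of ratios scaling and to 558 and 284 with scaling to nuclear genes. The difference in log2 of *Krt8* over *Krt5*, −0.17, became 0.77 with 1 FPKM added and ranged from −1.70 to 0.98 with 1 mouse left out, and its cause was not tested. The mean log2(FPKM + 1) of luminal minus basal keratins, also added after the data were seen, differed by 0.30. *Krt18* over *Krt14* could not be compared without an added value, nor could the mean over all keratins. No paired analysis was possible because each mouse was killed at a single age. The unknown depth limits what a value of 0 or near 0 can show.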
